A study of Mus musculus with 6 samples.

Results

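The 37 genes described here encode the interstitial matrix of connective tissue, the enzymes that crosslink or cut it, and the TGF-beta ligands, receptors and latency proteins that are closely tied to fibrosis. They were chosen by symbol from their known roles, with earlier results of these data known, and all 37 were found among the 54532 genes of the count table. Transcripts were measured by bulk RNA sequencing of whole mouse adrenal glands, with 3 samples in the WT group and 3 in the VEGF/LysM group. The comparison asks what VEGF-A made by macrophages does for the gland. LysM is another name of Lyz2, a lysozyme gene of myeloid cells. The labels describe neither the alleles nor the driver, give no age, sex or treatment, and do not say whether the replicates were separate animals or pools, so every p rests on the variation among these samples only, and that variation may be technical.

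No member reached the threshold when VEGF/LysM was compared with WT. edgeR's quasi-likelihood test, with Benjamini-Hochberg adjustment over all 16300 genes tested and a threshold of 0.05, called 0 of the 37, with 0% called among all genes. Tnc, which encodes the matrix glycoprotein tenascin-C, read 24.5, 26.7 and 19.2 CPM across WT and 48.3, 30.4 and 37.3 CPM across VEGF/LysM and was the only member whose VEGF/LysM libraries all lay above the WT libraries. Tgfb1 was the only member whose VEGF/LysM libraries all lay below. Of all genes tested, 3.54% lay above in this way and 2.41% below, so these 2 members are a share near the background. CPM is the usual depth-scaled count, here with library sizes adjusted by TMM, and values are given in the order of replicates 1, 2 and 3. The clearest pattern lay between libraries and not between groups: VEGF/LysM replicate 3 held the lowest value of 19 of the 37 genes.

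Interstitial matrix is the fibrous scaffold outside the basement membranes. Fibroblasts and the capsule of the gland make fibrils of collagen I and III, which collagen V helps to nucleate, lysyl oxidases crosslink the fibrils, and small proteoglycans on their surface set their width. TGF-beta is secreted in a latent form that LTBP proteins tether to microfibrils. Once released, it signals through the receptors TGFBR1 and TGFBR2 and is a strong inducer of collagen and fibronectin. Metalloproteinases cut the matrix and the TIMP proteins inhibit them.

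The sequences before the transcription starts of Tnc and Tgfb1 are shown because these were the members whose groups did not overlap, and that of Col3a1 because it is a fibrillar collagen that was low in VEGF/LysM replicate 3. Each line holds the 250 bases upstream of a RefSeq start on GRCm38.p6, read on the strand of the gene. Capitals mark matches on either strand to any of 6 motifs. The first is TATAAA, the core of the TATA box near many regulated starts. The next is CCAAT, the pentamer that the factor NF-Y binds. The GC box of the factor Sp1 was searched as GGGCGG on both strands. The element of the AP-1 factors was searched as TGANTCA, where N is any base. The cyclic AMP response element was searched as TGACGTCA, which reads the same on both strands. The palindromic element of Smad proteins, the messengers of TGF-beta, was searched as GTCTAGAC. The Tnc window is chr4:64047016-64047265 on the minus strand, the Tgfb1 window chr7:25686752-25687001 on the plus strand and the Col3a1 window chr1:45311288-45311537 on the plus strand.
Tnc: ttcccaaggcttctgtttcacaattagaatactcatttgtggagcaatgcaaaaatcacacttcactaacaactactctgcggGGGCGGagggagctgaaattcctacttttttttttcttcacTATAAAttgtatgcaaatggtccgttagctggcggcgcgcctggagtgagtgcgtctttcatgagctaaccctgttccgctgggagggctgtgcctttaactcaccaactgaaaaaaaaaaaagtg
Tgfb1: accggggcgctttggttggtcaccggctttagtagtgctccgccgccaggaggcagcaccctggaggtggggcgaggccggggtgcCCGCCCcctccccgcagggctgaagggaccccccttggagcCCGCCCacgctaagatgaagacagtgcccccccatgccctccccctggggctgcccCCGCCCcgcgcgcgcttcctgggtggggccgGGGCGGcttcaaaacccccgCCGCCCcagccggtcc
Col3a1: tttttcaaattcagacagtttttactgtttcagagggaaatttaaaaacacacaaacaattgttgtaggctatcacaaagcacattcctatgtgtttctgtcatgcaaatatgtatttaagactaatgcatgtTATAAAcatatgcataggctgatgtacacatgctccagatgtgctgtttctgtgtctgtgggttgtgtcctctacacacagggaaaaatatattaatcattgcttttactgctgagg

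The 3 windows held different combinations of the motifs. The Tnc window printed had 1 GC box, beginning 167 bases before the start, and 1 TATA box, beginning 126 bases before it. Tnc has a second RefSeq window, chr4:64046937-64047186, where the same matches begin 246 and 205 bases before its start. The Tgfb1 window had 5 GC boxes and none of the other motifs. Of the 32851 windows in the RefSeq table, 1.93% held at least as many GC boxes, among them windows of the member Ltbp4. The Col3a1 window had 1 TATA box, beginning 117 bases before the start. Windows were found for 25 of the 37 members, 34 windows in all. A GC box was in 20 of the 34 windows, those of 16 genes, and in 32.7% of all windows. A CCAAT box was in 12 of the 34, those of 12 genes, and in 33.8% of all windows. A TATA box was in 6 of the 34, those of 5 genes, and in 12.4% of all windows. Only Col6a1 had an AP-1 element (6.75% of all windows) and only Ltbp1 a cyclic AMP response element (1.55%). The Smad palindrome was in no member window and in 0.167% of all windows. Several of these genes have more than 1 window, so the counts of genes and the shares of windows are not like for like, and a match is only a match of letters.

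Library totals ran from 16476879 to 18671950 counts, with 22230 to 23491 genes detected. TMM factors were 1.02 to 1.05, except 0.84 in WT replicate 3. Adrenal identity was clear in every library: 8 cortex markers such as Star and Cyp11b1 summed to 28232 CPM in WT replicate 3, and the other libraries held 44062 to 53527 CPM, and 7 medulla markers such as Th and Chga summed to between 3804 CPM in WT replicate 3 and 9478 CPM in VEGF/LysM replicate 3. Markers of other organs stood apart in the libraries numbered 3. The 10 hepatocyte markers, Alb among them, summed to 76730 CPM in WT replicate 3 and 280.0 CPM in VEGF/LysM replicate 3, and the remaining 4 held 19.2 to 33.4 CPM, where 2 to 4 of the 10 were at 0. The 8 kidney tubule markers summed to 38.5 CPM in WT replicate 3, 3.0 CPM in VEGF/LysM replicate 3 and at most 1.58 CPM in any other, and the 8 lymphocyte markers to 1061 CPM in WT replicate 3, with 64.7 to 269 CPM in the rest. Vegfa read 295, 241 and 332 CPM across WT and 180.3, 193 and 501 CPM across VEGF/LysM. These values come from all cells in each sample, and the highest was that of VEGF/LysM replicate 3. In each group the highest Vegfa value was that of replicate 3, the library with the group's highest hepatocyte and kidney tubule sums. The part of other organs in the Vegfa values was not tested.

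All 37 genes passed the filter on low counts, with 39 to 16139 counts in every library. Levels of different genes are compared here as CPM per kilobase of the longest annotated coding transcript. Bgn, which encodes the small proteoglycan biglycan, was the most abundant, at 136 ± 16 CPM per kb (SD over 6 libraries). It was followed by the metalloproteinase inhibitor Timp3 at 97.7, the collagen VI chain Col6a1 at 75.8, Timp2 at 46.9 and the collagen V chain Col5a3 at 46.2. These 5 genes made up 38.3% to 56.4% of the summed level of the 37. Col1a2 came at 31.0 and Col3a1 at 25.1 CPM per kb, so the chains of collagen I and III did not lead among the 37. Matrix genes outside the 37 were not ranked. Tgfb2 at 0.70 and Col8a1 at 0.68 closed the order. The range over the 6 libraries overlapped that of the next gene for all 36 neighbouring pairs, so the order of neighbours is not resolved.

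**Figure D1:**
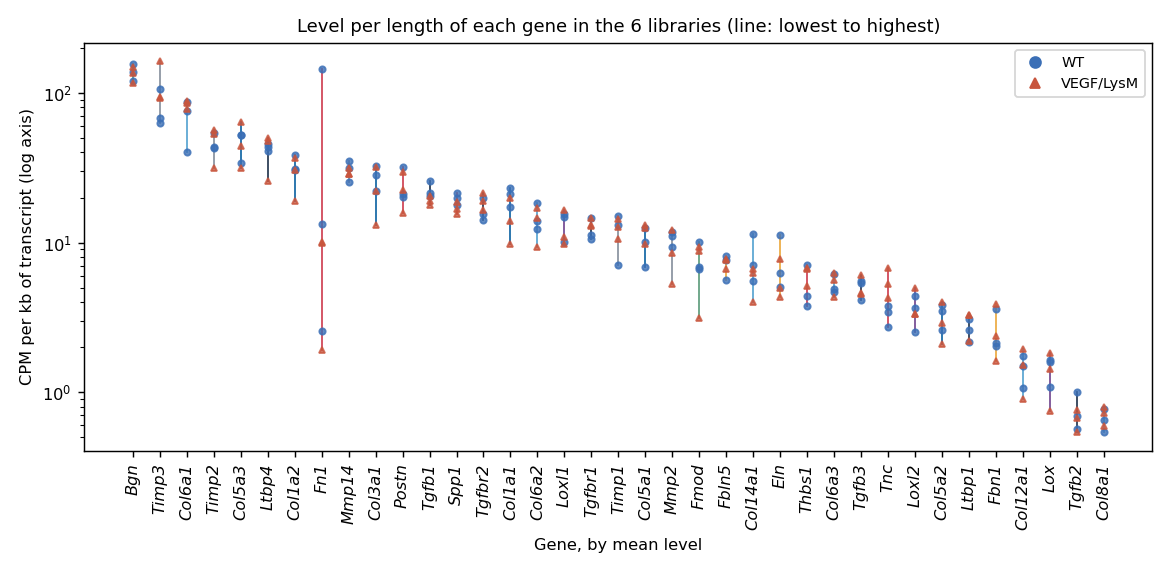
Level of each of the 37 genes in CPM per kb of transcript (log axis), ordered by the mean of 6 libraries; circles are WT, triangles VEGF/LysM, and the line spans lowest to highest. Bgn leads at 136 CPM per kb, Fn1 has by far the widest span, and every gene overlaps its neighbour.

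The fibrillar collagens, 6 chains that build the cable-like fibrils, had a median log2 fold change (VEGF/LysM minus WT) of -0.18, beside 0.0013 for all genes tested. None was called, and 4 of the 6 point estimates were below 0. Col1a1, the major chain of collagen I (ENSMUSG00000001506, chromosome 11, 94936224 to 94953042, plus strand, GRCm38), read 103, 137 and 125 CPM across WT and 83.1, 117 and 58.3 CPM across VEGF/LysM. The groups overlapped through VEGF/LysM replicate 2, and the log2 fold change was -0.50 ± 0.26 (SE), with a 95% interval of -1.12 to 0.12. Leaving out VEGF/LysM replicate 2 gave -0.80 and leaving out VEGF/LysM replicate 3 gave -0.28. Col1a2, the second chain of collagen I, read 166, 207 and 162 CPM across WT and 163, 196 and 101 CPM across VEGF/LysM. Only VEGF/LysM replicate 3 lay below the WT range for Col1a2, and the log2 fold change of -0.22 ± 0.26 (SE) became 0.013 without that library. Col3a1, whose product forms the finer reticular fibrils, read 124, 181 and 158 CPM across WT and 122, 178 and 73.2 CPM across VEGF/LysM. Replicates 1 and 2 of the groups were nearly equal for Col3a1, so that its log2 fold change of -0.31 ± 0.32 (SE) became -0.014 without both libraries numbered 3. Of the collagen V chains, Col5a1 spanned 58.0 to 104 CPM across WT and 82.7 to 109.5 CPM across VEGF/LysM (log2 fold change 0.27 ± 0.23, SE), Col5a2 spanned 17.2 to 25.4 and 13.9 to 26.6 CPM (-0.14 ± 0.28, SE), and Col5a3 spanned 207 to 321 and 191 to 389 CPM (0.0023 ± 0.30, SE). The collagen V chains thus did not share 1 sign.

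The other collagens had a median log2 fold change of 0.029, and none of the 6 was called. Col6a1, a chain of the beaded microfilament collagen VI, read 310.2, 354 and 166 CPM across WT and 352, 361 and 321 CPM across VEGF/LysM. Here WT replicate 3 was the low library, and the log2 fold change of 0.32 ± 0.28 (SE) became 0.049 without it. Its partner chains gave -0.13 ± 0.25 (SE) for Col6a2, over 57.5 to 84.9 CPM across WT and 43.4 to 79.1 CPM across VEGF/LysM, and 0.043 ± 0.19 (SE) for Col6a3, over 42.1 to 55.2 and 38.8 to 56.2 CPM. Col8a1, a network collagen known from vessel walls, gave 0.10 ± 0.28 (SE) at 2.79 to 4.05 CPM over all libraries. Col12a1 and Col14a1 encode collagens that sit on the surface of fibrils. Col12a1 gave 0.014 ± 0.33 (SE), over 12.2 to 20.1 and 10.4 to 22.3 CPM. Col14a1 gave -0.51 ± 0.32 (SE), over 31.3 to 65.2 CPM across WT and 22.7 to 37.8 CPM across VEGF/LysM, and 0.045 without both libraries numbered 3. The 65.2 CPM of Col14a1 came from WT replicate 3.

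Chains of 1 collagen type are assembled into the same trimers, so their ratio was compared within each library, where scaling cannot affect it. The ratio of Col1a1 to Col1a2 per base of transcript was 0.558, 0.596 and 0.697 in WT and 0.459, 0.538 and 0.523 in VEGF/LysM. The groups did not overlap, with a difference of -0.28 log2 units, and an exact two-sided permutation test gave p = 0.1, the smallest that 3 against 3 allows (0.4 after Benjamini-Hochberg adjustment over the 4 ratios compared). The difference was -0.21 without both libraries numbered 3. Col6a1 exceeded Col6a2 by 5.4, 4.73 and 3.28 times in WT and by 5.91, 5.17 and 8.38 times in VEGF/LysM (exact p = 0.2, adjusted 0.4). The libraries numbered 3 lay farthest apart in this ratio, and the difference of 0.54 log2 units was 0.13 without them. Col5a1 to Col5a2 gave 3.90, 3.25 and 1.98 in WT and 3.38, 3.25 and 5.98 in VEGF/LysM (exact p = 0.4, adjusted 0.4). Col6a3 to Col6a1 gave 0.0646, 0.0711 and 0.115 in WT and 0.0656, 0.0709 and 0.0551 in VEGF/LysM (exact p = 0.4, adjusted 0.4). For collagens V and VI the ratios of replicates 1 and 2 lay close together in the groups, and the values of the libraries numbered 3 lay on opposite sides of them.

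**Figure D2:**
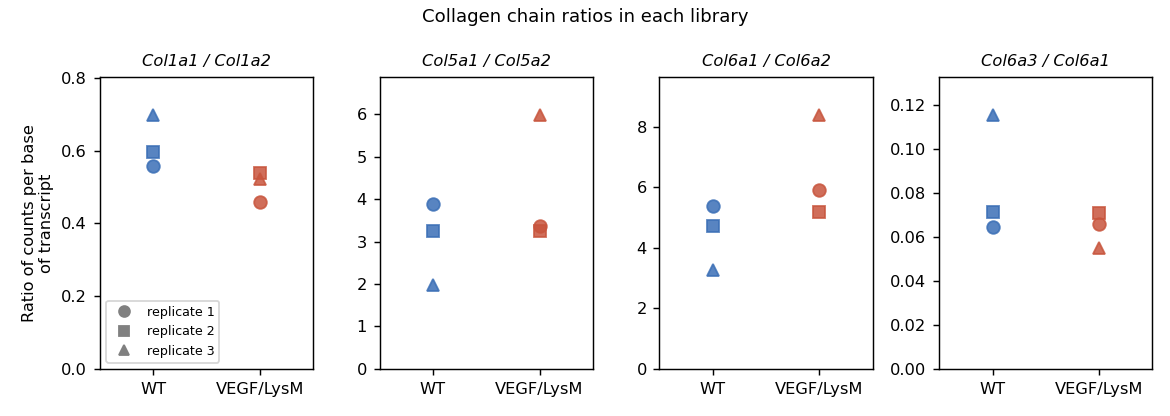
Ratio of 2 chains of a collagen in each library (counts per base of transcript, axes from 0), with replicates shown by marker shape. Col1a1 to Col1a2 runs from 0.558 to 0.697 in WT and from 0.459 to 0.538 in VEGF/LysM; in the other panels the triangles of replicate 3 lie farthest out.

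The adhesive glycoproteins, which link cells to collagen and are often raised in repairing tissue, held the largest and least certain estimate, that of Fn1, and the only unadjusted p under 0.05, that of Tnc. Their median log2 fold change was -0.11 and none of the 5 was called. Tnc (ENSMUSG00000028364, chromosome 4, 63959785 to 64047015, minus strand, GRCm38) had a log2 fold change of 0.72 ± 0.22 (SE), with a 95% interval of 0.19 to 1.25. It was higher in 3 of 3 VEGF/LysM libraries than in any WT library, and its window is the first of those printed above. edgeR's quasi-likelihood test gave it an unadjusted p of 0.015, the only one under 0.05 among the 37, and an adjusted p of 0.999. Leaving out 1 library at a time gave 0.51 to 0.85, and leaving out both libraries numbered 3 gave 0.63. The unadjusted p of Tnc was under 0.05 in each alternative fit except the one without VEGF/LysM replicate 1. Fn1, which encodes fibronectin (ENSMUSG00000026193, chromosome 1, 71585520 to 71653200, minus strand, GRCm38), read 21.4, 111 and 1198 CPM across WT and 83.5, 82.5 and 15.9 CPM across VEGF/LysM. WT replicate 3 was 18.1 times the mean of the other WT libraries, and it is the library with 76730 CPM of hepatocyte markers; hepatocytes are a known source of plasma fibronectin. The log2 fold change of -2.87 ± 1.39 (SE) became -0.13 without WT replicate 3 and 0.33 without both libraries numbered 3. Even over the other 5 libraries Fn1 spanned 15.9 to 111 CPM. The part of liver transcripts in the Fn1 values of single libraries was not tested.

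The remaining adhesive genes overlapped between the groups. Postn, which encodes periostin, a collagen-binding protein of fibroblasts, read 64.7, 103 and 68.0 CPM across WT and 95.4, 72.1 and 50.8 CPM across VEGF/LysM (log2 fold change -0.11 ± 0.28, SE). Spp1, which encodes osteopontin, read 32.2, 29.9 and 26.8 CPM across WT and 23.4, 28.3 and 25.1 CPM across VEGF/LysM. It was the steadiest of the 5, with a log2 fold change of -0.21 ± 0.16 (SE). Thbs1, whose product thrombospondin-1 can release TGF-beta from its latent complex, read 25.6, 41.3 and 22 CPM across WT and 30.0, 39.3 and 38.7 CPM across VEGF/LysM (0.28 ± 0.26, SE). WT replicate 2 was above all VEGF/LysM libraries for Thbs1; the estimate was 0.60 without that library and 0.098 without WT replicate 3.

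**Figure D3:**
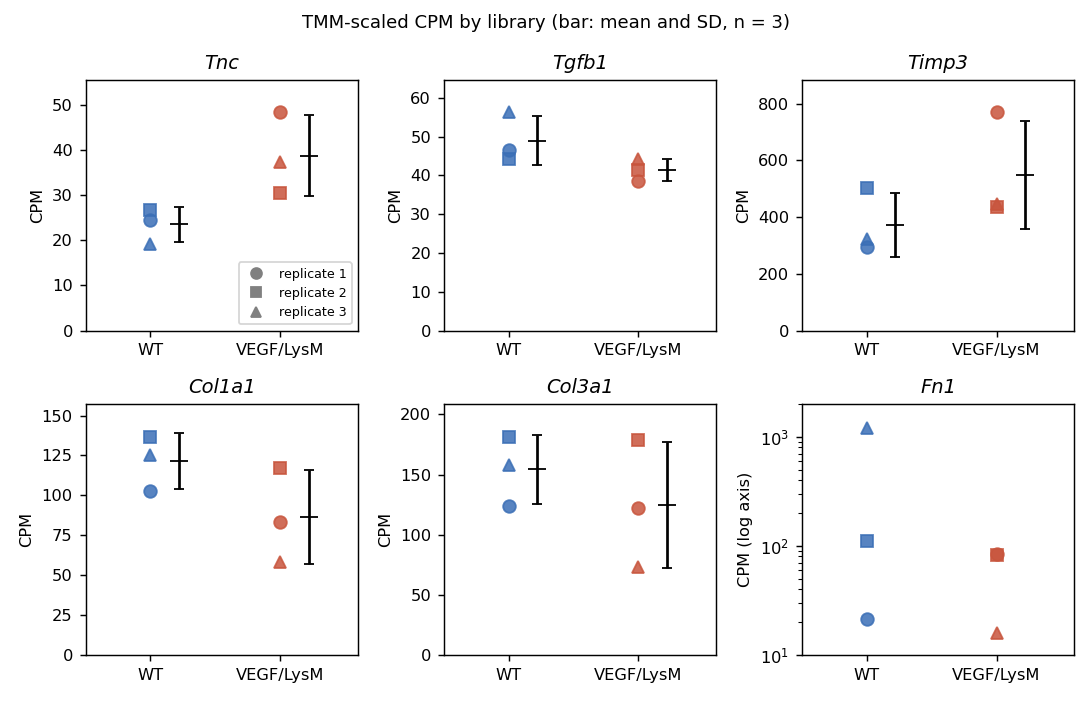
CPM of 6 members in each library (points, replicate by marker shape; bars are mean and SD of 3 libraries, not drawn for Fn1, whose axis is a log axis). Tnc shows 19.2 to 26.7 in WT and 30.4 to 48.3 in VEGF/LysM, Tgfb1 nearly touches at 44.3 and 44.2, and Fn1 reaches 1198 in WT replicate 3.

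Lysyl oxidases crosslink collagen and elastin. Lox read 5.18, 7.83 and 7.50 CPM across WT and 6.74, 8.62 and 3.53 CPM across VEGF/LysM, giving a log2 fold change of -0.12 ± 0.38 (SE). Loxl1, which acts mainly on elastin, spanned 33.2 to 51.5 CPM across WT and 32.5 to 54.5 CPM across VEGF/LysM (-0.12 ± 0.26, SE). Loxl2 spanned 13.4 to 23.3 and 17.7 to 26.3 CPM (0.13 ± 0.27, SE). All 3 enzymes were highest in VEGF/LysM replicate 2 and lower in VEGF/LysM replicate 3 than in the mean of the other VEGF/LysM libraries. None was called, and the median log2 fold change was -0.12.

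Elastic fibres consist of an elastin core on a fibrillin scaffold. Eln, the elastin gene, read 24.1, 19.4 and 43.3 CPM across WT and 16.7, 30.0 and 19.2 CPM across VEGF/LysM. WT replicate 3 was 1.99 times the mean of the other WT libraries for Eln, and the log2 fold change of -0.39 ± 0.36 (SE) was 0.014 without it. That library also held the highest level of 5 of the 8 hepatic stellate markers, and of 28.4% of all genes tested. The sum of these 8 markers ran from 450.1 to 560 CPM over the libraries. Smooth muscle and pericyte markers summed to 441 CPM in WT replicate 3 and to 291 to 383 CPM in the other libraries. WT replicate 3 was the highest library for 4 of those 10 markers. The part of either marker list in the Eln and Col14a1 values was not tested. Fbn1, the fibrillin-1 gene, read 24.3, 42.9 and 25.5 CPM across WT and 28.3, 46.8 and 19.4 CPM across VEGF/LysM. Both groups had their high value of Fbn1 in replicate 2, and the log2 fold change was 0.026 ± 0.37 (SE). Fbln5, which helps elastin to assemble, spanned 32.7 to 47.2 CPM across WT and 39.0 to 45.3 CPM across VEGF/LysM (0.051 ± 0.18, SE). None of the 3 was called, and their median was 0.026, or -0.39 without VEGF/LysM replicate 2.

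The small proteoglycans bind collagen fibrils and, in the case of biglycan, also TGF-beta. Bgn read 332, 378 and 289 CPM across WT and 362, 331 and 279.7 CPM across VEGF/LysM. The replicate 3 library was the lowest of each group, and the log2 fold change was -0.038 ± 0.18 (SE), with a 95% interval of -0.45 to 0.38. Fmod, the fibromodulin gene, read 21.4, 31.3 and 20.9 CPM across WT and 27.3, 29.0 and 9.77 CPM across VEGF/LysM. VEGF/LysM replicate 3 was 0.348 times the mean of the other VEGF/LysM libraries for Fmod, and the log2 fold change of -0.16 ± 0.41 (SE) was 0.099 without both libraries numbered 3. Neither gene was called.

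The TGF-beta ligands, receptors and latency proteins varied little between libraries as a group, though single genes of other groups, such as Bgn and Mmp14, varied less. None of these 7 genes differed by 2-fold or more between its highest and lowest library, and the median of that ratio was 1.52, against 1.95 for the 37 and 1.77 for all genes tested. Their median log2 fold change was 0.024 and none was called. Tgfb1, the main ligand of immune and vascular cells (ENSMUSG00000002603, chromosome 7, 25687002 to 25705077, plus strand, GRCm38), read 46.5, 44.3 and 56.2 CPM across WT and 38.5, 41.3 and 44.2 CPM across VEGF/LysM. The groups nearly touched: the lowest WT library read 44.26 and the highest VEGF/LysM library 44.20 CPM. The log2 fold change was -0.24 ± 0.15 (SE), with a 95% interval of -0.59 to 0.11 and an unadjusted p of 0.14 in edgeR's test. Lymphocyte markers, highest in the WT replicate 3 library, summed to 144 to 1061 CPM across WT and 64.7 to 131 CPM across VEGF/LysM, and the 10 macrophage markers to 572 to 741 and 469 to 611 CPM. Their part in the Tgfb1 values was not tested. Without WT replicate 3 the log2 fold change of Tgfb1 was -0.14.

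Tgfb2 read 3.53, 5.10 and 2.90 CPM across WT and 3.87, 3.42 and 2.77 CPM across VEGF/LysM, giving a log2 fold change of -0.20 ± 0.32 (SE). Tgfb3 read 18.6, 18.0 and 14.0 CPM across WT and 15.6, 20.6 and 15.3 CPM across VEGF/LysM (0.024 ± 0.21, SE). Per length, Tgfb1 at 20.8 CPM per kb exceeded Tgfb3 at 5.03 and Tgfb2 at 0.70, so Tgfb1 was the leading ligand transcript of the gland, with no overlap of ranges between the 3. The type I receptor Tgfbr1 read 60.8, 84.6 and 64.5 CPM across WT and 73.9, 75.0 and 83.6 CPM across VEGF/LysM (0.15 ± 0.16, SE). The type II receptor Tgfbr2 read 114, 159.7 and 126 CPM across WT and 173, 155 and 135 CPM across VEGF/LysM (0.21 ± 0.18, SE). For both receptors WT replicate 2 lay within or above the VEGF/LysM range. Ltbp1 read 17.5, 20.6 and 14.4 CPM across WT and 14.7, 21.9 and 22 CPM across VEGF/LysM (0.16 ± 0.23, SE). Ltbp4, the more abundant latency protein gene, read 236, 246 and 219 CPM across WT and 257, 270.4 and 139 CPM across VEGF/LysM (-0.072 ± 0.26, SE). As for Col1a2, VEGF/LysM replicate 3 alone lay below the WT range for Ltbp4.

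Metalloproteinases and their inhibitors took 19.2% to 31.2% of the members' summed level per length, mostly through Timp3 and Timp2. Timp3, whose product stays bound to the matrix and can also block the VEGF receptor KDR (ENSMUSG00000020044, chromosome 10, 86300372 to 86349506, plus strand, GRCm38), read 296, 502 and 321 CPM across WT and 769, 435 and 444 CPM across VEGF/LysM. WT replicates 1 and 3 were below all VEGF/LysM libraries, but WT replicate 2 exceeded VEGF/LysM replicates 2 and 3. The log2 fold change was 0.56 ± 0.31 (SE), with a 95% interval of -0.18 to 1.30, and it was 0.22 without VEGF/LysM replicate 1 and 0.83 without WT replicate 2. Timp1 read 13.3, 11.6 and 6.24 CPM across WT and 12.7, 11.1 and 9.30 CPM across VEGF/LysM (0.089 ± 0.32, SE). Timp2, which takes part in activating the MMP2 protein, spanned 158 to 199 CPM across WT and 117 to 210.3 CPM across VEGF/LysM (0.017 ± 0.24, SE). Mmp2, a gelatinase, read 34.0, 36.3 and 28.9 CPM across WT and 26.1, 37.4 and 16.3 CPM across VEGF/LysM (-0.31 ± 0.30, SE), and the estimate was -0.65 without VEGF/LysM replicate 2 and -0.056 without VEGF/LysM replicate 3. Mmp14, the membrane protease that activates pro-MMP2, read 81.2, 90.8 and 66.2 CPM across WT and 74.2, 82.3 and 74.2 CPM across VEGF/LysM (-0.047 ± 0.15, SE). None of the 5 was called, and their median log2 fold change was 0.017.

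**Figure D4:**
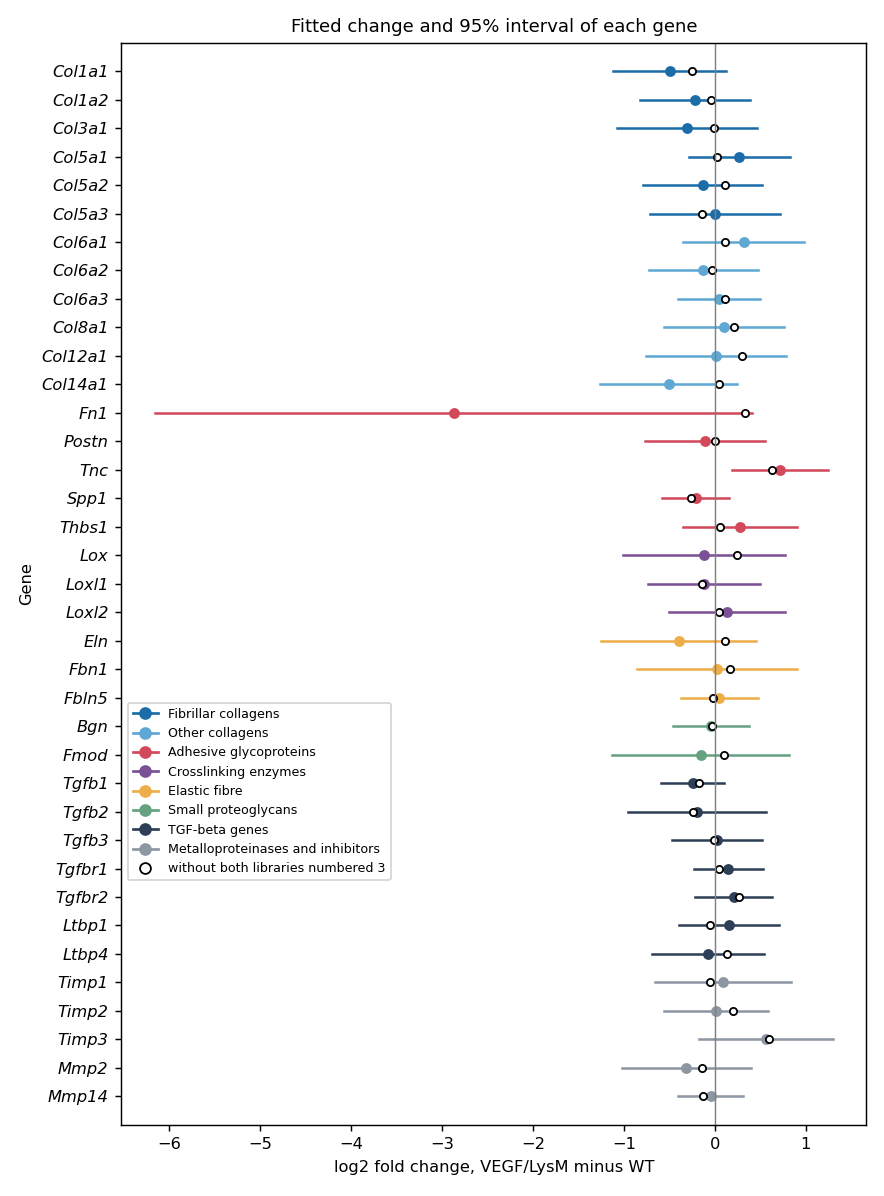
Fitted log2 fold change (VEGF/LysM minus WT) of each gene with its 95% interval, coloured by role; open circles leave out both libraries numbered 3. The interval of Tnc (0.19 to 1.25) is the only one of the 37 that does not include 0, and the estimate of Fn1 moves from -2.87 to 0.33.

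Over the 37 genes together, 18 point estimates were above 0 and 19 below, with a median of -0.038. The groups did not overlap for 1 gene with VEGF/LysM above WT (Tnc), where 3.54% of all genes tested had that pattern, and for 1 with VEGF/LysM below WT (Tgfb1), where 2.41% had it. For either direction the share of all genes was 5.95%. The 2 members are thus a share near the background. At an unadjusted p under 0.05 edgeR found 1 member and 459 of all 16300 genes, DESeq2 found 2 members (Tnc and Fn1) and 542 genes, and limma-voom found 1 member and 224 genes, with 0 genes called by any of the 3 tools after adjustment. The half-width of the 95% interval had a median of 0.63 log2 units over the members and 0.61 over all genes.

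Differences between libraries of 1 group were larger and ran through most of the genes. VEGF/LysM replicate 3 was the lowest of the 6 libraries for 19 of 37 members (51.4%; 15.9% of all genes tested), among them 4 of 6 fibrillar and 4 of 6 other collagens. It lay below the mean of VEGF/LysM replicates 1 and 2 for 32 of 37 members (86.5%; 50.6% of all genes), with a median ratio of 0.759. The ratio was 0.583 for Col1a1, 0.560 for Col1a2, 0.487 for Col3a1, 0.460 for Lox and 0.513 for Mmp2. The 5 members at or above that mean were Col5a1, Thbs1, Tgfb1, Tgfbr1 and Ltbp1. WT replicate 3 lay below the mean of WT replicates 1 and 2 for 28 of 37 members (75.7%; 50.8% of all genes), with exceptions that included Fn1, Col14a1, Eln and Tgfb1. WT replicate 2 held the highest value of 12 members (32.4%; 8.80% of all genes) and VEGF/LysM replicate 2 that of 14 (37.8%; 9.53%). Neither held the lowest of any member, where they held it for 9.18% and 10.8% of all genes.

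Other cell markers moved between the same libraries. The 10 fibroblast and capsule markers, such as Pdgfra and Dpt, summed to 261 CPM in VEGF/LysM replicate 3, and WT replicate 3 held 251 CPM, against 322 to 386 CPM in the other 4, and 9 of the 10 were lower in VEGF/LysM replicate 3 than in the mean of the other VEGF/LysM libraries. All 10 had counts in every library. Medulla markers were at their highest in VEGF/LysM replicate 3, for 6 of 7 genes. Smooth muscle and pericyte markers ran from 291 to 441 CPM and endothelial markers from 619 to 768 CPM. The fibroblast list was not alone in being low in VEGF/LysM replicate 3. Below the mean of the other VEGF/LysM libraries there were 7 of 8 adrenal cortex and 6 of 8 endothelial markers. The count was 5 of 10 for smooth muscle and pericyte, 2 of 10 for macrophage and 1 of 7 for medulla markers, beside 50.6% of all genes tested. In bulk tissue, fewer cells of a type and less RNA per cell cannot be told apart. The part of these markers in the low matrix values was not tested. Without VEGF/LysM replicate 3 the members' median log2 fold change was 0.093, without WT replicate 3 -0.10, and without both 0.042.

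**Figure D5:**
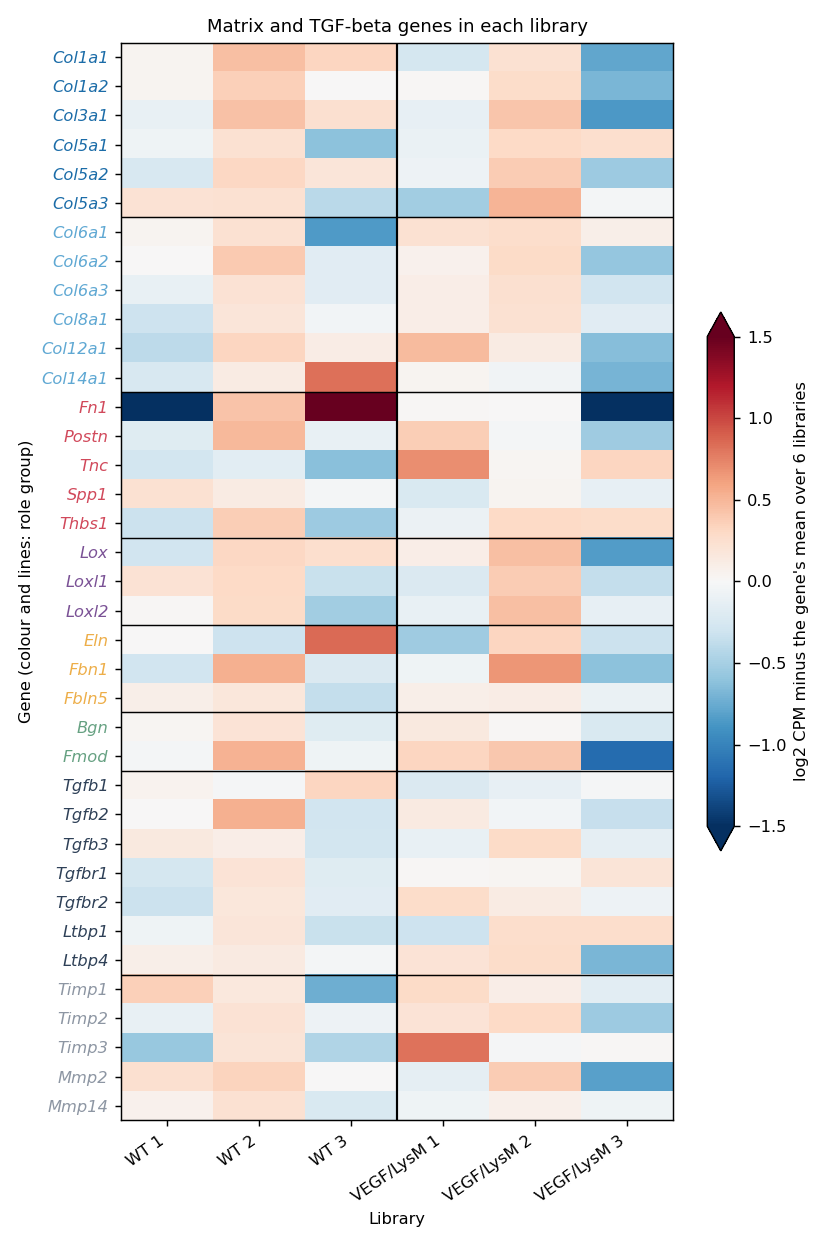
Log2 CPM of each member minus its mean over the 6 libraries, with rows grouped by role and colours ending at 1.5 log2 units. VEGF/LysM replicate 3 is the bluest column, lowest for 19 of 37 genes; replicate 2 of both groups is mostly red.

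Further genes of the same pathways were counted from 5 lists, and none was called in either direction. In the signal transduction list, with Smads, their regulators and co-receptors, 15 of 15 genes were tested, 9 with an estimate above 0 and 6 below, with a median of 0.052. Ski, a corepressor of Smad proteins, read 159.7, 173 and 114 CPM across WT and 188, 184 and 187 CPM across VEGF/LysM, without overlap (log2 fold change 0.32 ± 0.18, SE). Its VEGF/LysM libraries had an SD of 2.09 CPM, while WT replicate 3 was low, and the estimate without that library was 0.16. Tgif1, another Smad corepressor, gave 0.25 ± 0.19 (SE), and 0.086 without WT replicate 3. In the latency and activation list 8 of 10 genes were tested, with a median of -0.042. Itgav, the integrin chain that binds latent TGF-beta, read 50.1, 63.5 and 45.8 CPM across WT and 65.2, 62.1 and 74.7 CPM across VEGF/LysM (0.34 ± 0.16, SE), and its partner Itgb8 gave 0.30 ± 0.26 (SE), and 0.12 without WT replicate 1. Plg, the plasminogen gene of the liver, was at 0 in 4 libraries, at 1508 CPM in WT replicate 3 and, in VEGF/LysM replicate 3, at 4.24 CPM, and was not tested after the filter.

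In the list of genes that TGF-beta induces, 9 of 10 were tested, with a median of 0.069. Il11 failed the filter on low counts, with 2, 2 and 0 counts across WT and 11, 9 and 8 across VEGF/LysM. Its groups did not overlap, but these counts lie near the floor. Ccn2, a matricellular gene that TGF-beta and stretch induce, read 62.7, 50.1 and 33.0 CPM across WT and 70.9, 56.6 and 69.9 CPM across VEGF/LysM (log2 fold change 0.44 ± 0.24, SE), and the estimate was 0.66 without WT replicate 1 and 0.22 without WT replicate 3. Cdkn1a, a cell cycle inhibitor, gave -0.67 ± 0.45 (SE), with 95.6 CPM in WT replicate 3, above a span of 22.8 to 54.6 CPM in the rest, and -0.11 without that library. In the collagen maturation list 19 of 20 genes were tested, with a median of 0.089. Adamts3, which trims the amino-terminal propeptide of procollagens, read 2.96, 5.72 and 2.15 CPM across WT and 7.15, 6.20 and 7.65 CPM across VEGF/LysM, without overlap. Its log2 fold change was 0.95 ± 0.39 (SE), with an unadjusted p of 0.047 and an adjusted p of 0.999 in edgeR's test. The estimate was 1.45 without WT replicate 2 and 0.68 without WT replicate 3. Plod2, a lysyl hydroxylase that prepares collagen for crosslinking, read 187, 181 and 108 CPM across WT and 238, 234 and 195 CPM across VEGF/LysM, also without overlap (0.49 ± 0.23, SE; 0.27 without WT replicate 3). These were 2 of the 19 tested genes of that list, both with VEGF/LysM above WT. Of all genes tested, 3.54% lay above in this way and 5.95% did not overlap in either direction. In the list of other interstitial matrix genes 21 of 22 were tested, with a median of 0.048. Efemp1, a fibulin family member, gave 0.42 ± 0.23 (SE), and 0.22 without WT replicate 3. Fbln1, fibulin-1, gave -0.29 ± 0.26 (SE), and -0.13 without VEGF/LysM replicate 3 or -0.63 without VEGF/LysM replicate 2. The groups overlapped for both.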

How the data were processed

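RNA from whole adrenal glands was sequenced in 3 WT and 3 VEGF/LysM samples. Per the labels' protocols, libraries followed the Smart-seq2 method, which does not mark strand, so reads of overlapping and antisense genes cannot be told apart. The authors deposited raw gene counts (whole numbers) for the 6 libraries in 1 table. The submitters' processing notes name kallisto, DESeq2 1.36.0 and the build mm10. The role of each remains not given in the sources used here. Total counts were 16476879 to 18671950 per library; the scarcest member had 39 counts in a library, and scarce members carry more counting error.

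Counts were filtered with filterByExpr (minimum count 10, minimum total count 15), scaled by TMM and tested in edgeR 4.0.16 (R 4.3.3) with group as the only term, Benjamini-Hochberg adjustment over all 16300 genes and a threshold of 0.05. Standard errors and 95% intervals come from this model. Chain ratios had exact permutation tests. Coordinates and transcript lengths are from GENCODE M21 (GRCm38) and upstream sequences from RefSeq (GRCm38.p6). The steps were tested on simulated counts. Alternatives were DESeq2 1.42.0, limma-voom 3.58.1, scaling by DESeq2's size factors, by the upper quartile or by library totals alone, tests without any filter, a filter of 1 CPM in 3 libraries, a threshold of 0.1, a replicate block, and leaving out each library or both libraries numbered 3. Every member is named; values per library are given for 24 listed members, for members whose groups do not overlap and for those whose log2 fold change shifts by over 0.5 when a library is left out. In each pathway list the 2 genes with the smallest p are named. The members and lists were chosen with earlier results of these data known.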

Additional observations from a re-analysis of the deposited data

How the results depend on the processing

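The count of members called was 0 and the members' median log2 fold change moved by less than the spread between replicates in every alternative run (-0.15 to 0.093). Of the 37 members, 12 held the direction of their estimate in all alternatives and 25 turned in at least 1, most from estimates near 0; no cause was tested beyond the alternatives' own construction. The 12 were Col1a1, Col3a1, Col5a1, Col6a1, Tnc, Spp1, Thbs1, Tgfb1, Tgfbr1, Tgfbr2, Timp3 and Mmp2. The lowest count of any member in a library was 39. Over the fits that left out 1 library, the log2 fold changes of these 12 ran from -0.80 to -0.28 for Col1a1, -0.67 to -0.036 for Col3a1, 0.063 to 0.47 for Col5a1, 0.049 to 0.53 for Col6a1, 0.51 to 0.85 for Tnc, -0.31 to -0.14 for Spp1, 0.098 to 0.60 for Thbs1, -0.31 to -0.14 for Tgfb1, 0.058 to 0.31 for Tgfbr1, 0.10 to 0.36 for Tgfbr2, 0.22 to 0.83 for Timp3 and -0.65 to -0.056 for Mmp2.

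Leaving out 1 library at a time, all genes called ranged from 0 to 1 (1 without WT replicate 3), the elastic fibre median from -0.39 to 0.16, and the median of TGF-beta ligands, receptors and latency proteins from -0.14 to 0.090. Over the same fits log2 fold changes that turned ranged from -0.45 to 0.013 for Col1a2, -0.41 to 0.067 for Col5a2, -0.32 to 0.20 for Col5a3, -0.33 to 0.085 for Col6a2, -0.090 to 0.18 for Col6a3, -0.010 to 0.24 for Col8a1, -0.27 to 0.27 for Col12a1, -0.37 to 0.14 for Postn, -0.43 to 0.17 for Lox, -0.40 to 0.024 for Loxl1, -0.098 to 0.33 for Loxl2, -0.71 to 0.014 for Eln, -0.39 to 0.34 for Fbn1, -0.096 to 0.16 for Fbln5, -0.14 to 0.065 for Bgn, -0.42 to 0.20 for Fmod, -0.37 to 0.062 for Tgfb2, -0.14 to 0.10 for Tgfb3, -0.25 to 0.18 for Ltbp4, -0.17 to 0.31 for Timp1, -0.15 to 0.24 for Timp2 and -0.17 to 0.063 for Mmp14.

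Without both libraries numbered 3 the log2 fold changes that turned were 0.11 for Col5a2, -0.14 for Col5a3, 0.045 for Col14a1, 0.33 for Fn1, 0.0057 for Postn, 0.25 for Lox, 0.11 for Eln, -0.021 for Fbln5, 0.099 for Fmod, -0.012 for Tgfb3, -0.050 for Ltbp1, 0.14 for Ltbp4 and -0.055 for Timp1, and the differences in log2 ratio were -0.10 for Col5a1 to Col5a2 and 0.0099 for Col6a3 to Col6a1. Col5a3 also turned with DESeq2 size factors (-0.0081), DESeq2 (-0.0081), no filter (-0.0033) and limma-voom (-0.025). limma-voom turned Col12a1 (-0.024), Fbn1 (-0.025) and Timp2 (-0.021), and library-size scaling turned Bgn (0.019) and Mmp14 (0.0069).

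The labels do not say that replicate numbers mark a shared litter, batch or day, so the numbers were not taken to pair samples. Deviations of same-numbered samples correlated at 0.064, -0.014 and 0.25, and those of differently numbered samples at -0.25 to 0.32. With 3 libraries in each group these values cannot settle whether the samples were paired. With a replicate block 0 genes and 0 members were called, and Col5a3 (-0.025), Col12a1 (-0.028), Fbn1 (-0.016) and Timp2 (-0.020) turned.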
